A study of Rattus norvegicus with 8 samples.

Results

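The guanylate cyclases make the second messenger cyclic GMP (cGMP), and 8 genes of this system were followed in rat thoracic aorta: the soluble guanylate cyclase subunit genes Gucy1a3, Gucy1b3 and Gucy1a2, the natriuretic peptide receptor genes Npr1, Npr2 and Npr3, and the cGMP kinase substrate genes Mrvi1 and Vasp. They were chosen by symbol, and all 8 had a row among the 27742 rows of the deposited gene table. Where a symbol had several rows, the row with the highest mean was used, which applied to Gucy1a2 alone. The libraries came from wild type male Sprague Dawley rats, labelled as 12 weeks old and weighing 180 to 200 g. The 4 libraries of the nitroglycerin group were from rats injected under the skin with 100 mg/kg nitroglycerin (glyceryl trinitrate, an organic nitrate that releases nitric oxide) 3 times a day for 3 days, and the 4 control libraries were from rats given the ethanol vehicle on the same schedule. Total RNA of the whole vessel wall was depleted of ribosomal RNA and sequenced, so smooth muscle, endothelium, adventitia and any attached fat contribute to each value. The study title calls the treated aorta nitroglycerin tolerant, and the comparison asks which genes differ in it. Nothing in the labels ties a library to an individual animal, so p-values measure the spread between these libraries, which may be technical.

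In a vessel wall, nitric oxide made by the endothelium or released from a nitrate drug binds the heme of soluble guanylate cyclase in smooth muscle. That enzyme is a dimer of an alpha subunit (Gucy1a3 or Gucy1a2) and the beta subunit Gucy1b3. Natriuretic peptides raise cGMP by a separate route, through receptors that carry their own cyclase domain. Npr1 is the receptor for atrial and B-type natriuretic peptide, Npr2 is the receptor for C-type natriuretic peptide, and Npr3 has no cyclase domain and clears the peptides. cGMP activates cGMP-dependent protein kinase, which relaxes smooth muscle in part by phosphorylating Mrvi1 (also called IRAG), a partner of the inositol trisphosphate receptor, and which also phosphorylates the actin regulator Vasp.

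The promoters of Npr1, Gucy1a3 and Gucy1b3 are shown because Npr1 had the highest mean level of these genes in both groups and, of the 7 tested, was the only one whose groups stayed apart under both scalings, while the others encode the paired subunits of the enzyme that nitric oxide acts on. Sequences are from RefSeq (build GRCr8), from 250 bases before to 50 after the annotated start, 5′ to 3′ on the gene's own strand. Capitals mark GGGCGG (a GC box) and CCAAT on either strand. The GGGCGG and CCAAT matches of Gucy1a3 overlap by a few bases. RefSeq lists Gucy1a3 as Gucy1a1 and Gucy1b3 as Gucy1b1, and both lie on the minus strand of chromosome 2, as does Npr1.
Npr1, chr2:178247039-178247338, minus strand: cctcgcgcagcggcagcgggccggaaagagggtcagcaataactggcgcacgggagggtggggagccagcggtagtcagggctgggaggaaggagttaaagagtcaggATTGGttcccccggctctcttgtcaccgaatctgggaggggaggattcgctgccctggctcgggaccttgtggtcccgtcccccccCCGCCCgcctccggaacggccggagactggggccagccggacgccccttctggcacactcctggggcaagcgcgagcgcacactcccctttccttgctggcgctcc
Gucy1a3, chr2:169779574-169779873, minus strand: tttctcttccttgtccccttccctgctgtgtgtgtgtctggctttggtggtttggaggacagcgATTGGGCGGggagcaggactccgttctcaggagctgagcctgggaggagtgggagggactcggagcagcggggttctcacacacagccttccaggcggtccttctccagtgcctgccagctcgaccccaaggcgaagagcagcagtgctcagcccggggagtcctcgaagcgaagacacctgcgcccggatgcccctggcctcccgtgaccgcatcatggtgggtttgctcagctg
Gucy1b3, chr2:169696938-169697237, minus strand: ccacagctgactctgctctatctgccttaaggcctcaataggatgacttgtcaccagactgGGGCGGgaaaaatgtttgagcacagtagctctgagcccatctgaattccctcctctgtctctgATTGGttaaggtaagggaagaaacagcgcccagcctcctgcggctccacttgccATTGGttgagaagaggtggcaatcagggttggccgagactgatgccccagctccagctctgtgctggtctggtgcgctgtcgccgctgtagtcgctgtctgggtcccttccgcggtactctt

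Of the 8 genes, 7 had a promoter in the RefSeq table, and Npr2 is named only. Mrvi1 had 2 promoters there. The 7 are counted by gene and the shares of all promoters by promoter, so the units differ. GGGCGG was present in 5 of the 7 (Npr1, Gucy1a3, Gucy1b3, Gucy1a2 and Vasp) and in 33.1% of all 33469 promoters of this length. CCAAT was present in 4 of them (Npr1 and the 3 soluble cyclase genes) and in 37.5% of all promoters. All 4 of these held both motifs, as did 11.8% of all promoters. TATAAA was found in Gucy1a2 alone (14.2% of all promoters). The CArG box and TGACGTCA, searched on both strands, matched none of the 7 (1.64% and 1.83% of all promoters). These matches describe the letters in these windows and were not tested for function.

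Aligned sequence was 6.77 to 8.86 Gb per library, estimated from the ratio of coverage to FPKM (fragments scaled to transcript length and to library depth). The 100 rows of highest mean held 51.7 to 71.4% of the summed FPKM of each control and 47.4 to 50.4% with nitroglycerin. As deposited, 86.6% of the 12977 tested genes had a log2 difference above 0, with a median of 0.30. FPKM is a relative unit, and the part of these top rows in that shift was not tested. Differences are therefore given as deposited and after rescaling each library by a median-of-ratios factor (0.742 for control replicate 1, 0.905 to 0.996 for the other controls, 1.07 to 1.22 for nitroglycerin libraries), which brought that median to 0.01 and left 52.4% above 0. Tests were made with limma on log2(FPKM + 1), which understates changes of low genes, with Benjamini-Hochberg adjustment over all tested genes and an adjusted p under 0.05 as the threshold.

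None of the 8 genes passed that threshold under either scaling. Of the 7 tested, limma gave 0 calls as deposited against 1.35% of all tested genes, and 0 after rescaling against 0.131%. At an unadjusted p under 0.05, limma gave 2 higher as deposited (Npr1 and Npr2, against 34.1% of all tested genes) and 3 in either direction after rescaling (Npr1 higher, Mrvi1 and Vasp lower, against 11.9%). The groups did not overlap for 2 of the 7 as deposited, both higher with nitroglycerin (Npr1 and Npr2), where 24.2% of all tested genes were higher without overlap. After rescaling only Npr1 was higher without overlap (3.78% of all tested genes), and none of the 7 was lower without overlap under either scaling (0.478% as deposited and 4.45% rescaled). The median log2 difference of the 7 was 0.24 as deposited and -0.09 after rescaling, beside 0.30 and 0.01 for all tested genes.

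As deposited, the receptor gene Npr1 had the largest difference of the 7, and after rescaling Mrvi1 and Vasp, both lower, had larger ones. Its FPKM was 8.66, 11.2, 12.0 and 12.6 in control replicates 1 to 4, and 16.4, 16.8, 21.4 and 17.2 in nitroglycerin replicates 1 to 4. Every nitroglycerin library was above every control library, and nitroglycerin replicate 3 stood apart from the other 3 of its group. The means were 11.1 ± 1.72 and 17.96 ± 2.34 FPKM (SD, n = 4 per group), a ratio of 1.62. On the log2(FPKM + 1) scale the difference was 0.65 (SE 0.15, 95% interval 0.31 to 0.99, limma adjusted p = 0.0581), which was 0.36 above the median gene, and 7.38% of tested genes had a larger one. After rescaling the levels were 11.7, 11.2, 13.2 and 13.9 in controls and 14.1, 15.8, 18.04 and 14.1 in nitroglycerin libraries. The groups still did not overlap, with a log2 difference of 0.29 (SE 0.11, 95% interval 0.04 to 0.54, limma adjusted p = 0.353). Npr1 passed as deposited in 2 settings with fewer genes tested, and its difference was then the same. The limma adjusted p was 0.0427 with a stricter minimum of 5 FPKM and 0.0454 with 1 row per symbol. Those settings called many more genes, 384 of 3997 and 728 of 10361, against 175 of 12977 in the main fit. With 1 library left out, the log2 difference was 0.55 to 0.71 as deposited and 0.22 to 0.34 after rescaling.

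Npr2, the C-type natriuretic peptide receptor gene, followed the typical gene. Its FPKM was 5.64, 8.30, 8.87 and 7.82 in the controls and 9.88, 9.55, 10.4 and 10.1 in the nitroglycerin libraries. All nitroglycerin libraries were above all controls as deposited, and they lay close together, with an SD of 0.361 FPKM against 1.41 in the controls. The log2 difference was 0.36 (SE 0.14, limma adjusted p = 0.113), only 0.06 above the median gene. After rescaling the groups overlapped and the difference was 0.01, with a 95% interval of -0.19 to 0.21. Npr3, the clearance receptor gene, was near the bottom of the range and under the filter, a minimum of 1 FPKM reached in 4 or more libraries. It read 0.325, 0.106, 0.0959 and 0.281 FPKM in the controls and 0.301, 0.349, 0.289 and 0.244 in the nitroglycerin libraries, which overlapped. With no filter its log2 difference was 0.11 (SE 0.08, limma adjusted p = 0.455 over 27742 rows).

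**Figure D1:**
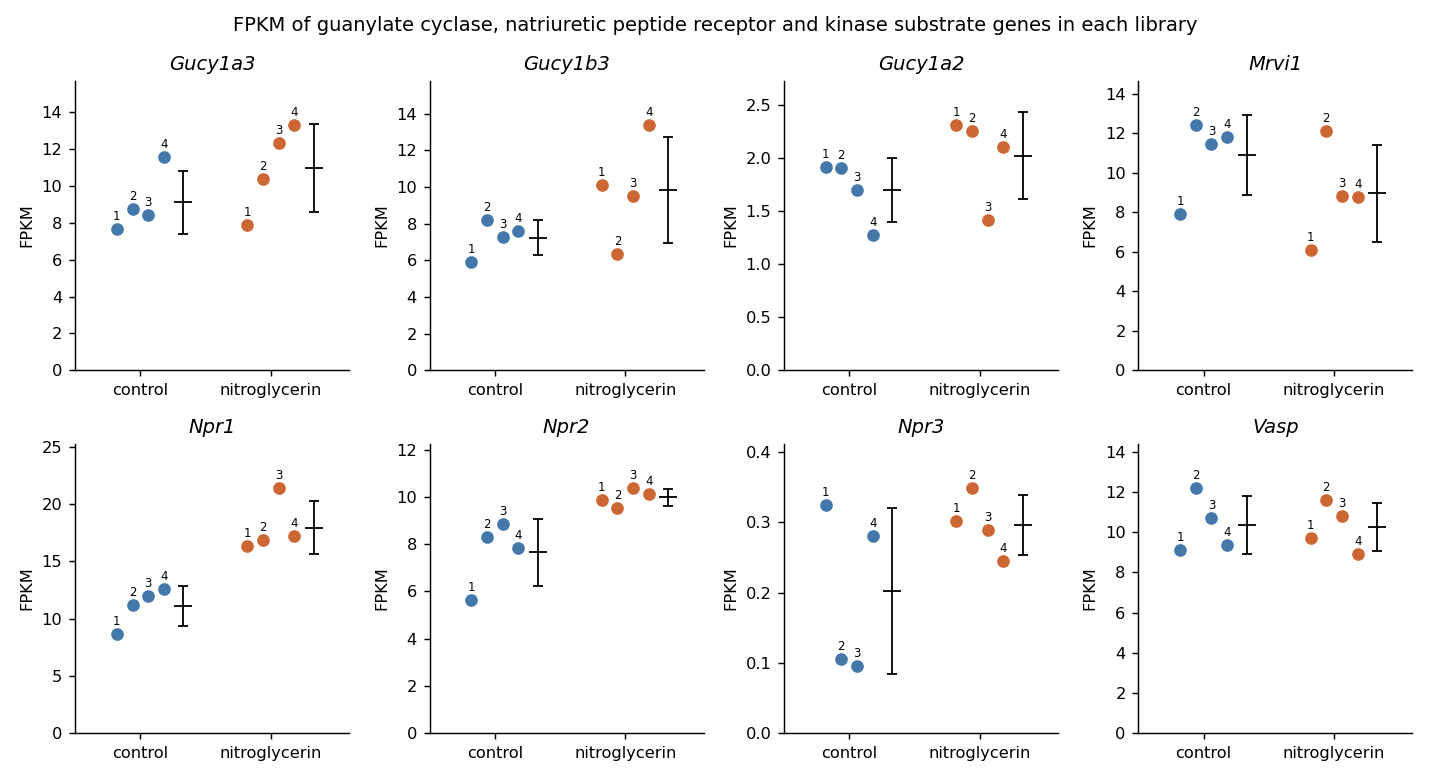
FPKM of the 8 genes (y axis, from 0) in each library (points, numbered by replicate), with the mean and SD of each group of 4 beside them. Npr1 (8.66 to 12.6 in controls, 16.4 to 21.4 with nitroglycerin) and Npr2 separate the groups as deposited, and the other 6 genes overlap.

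The ratio of Npr1 to Npr2 within a library does not depend on how that library is scaled. The ratio was 1.53, 1.35, 1.35 and 1.61 in the controls and 1.66, 1.76, 2.06 and 1.70 in the nitroglycerin libraries. It was higher in each of the 4 nitroglycerin libraries than in any control, although nitroglycerin replicate 1 and control replicate 4 lay close together. The log2 difference of the ratio was 0.30 (p = 0.0286 by an exact two-sided permutation test, the lowest value possible with 4 libraries per group, and 0.114 after Benjamini-Hochberg adjustment over 4 ratios). Set against Npr2 in the same way, 2.47% of the other tested genes were higher without overlap. The clearance receptor gene Npr3 stood at 0.0116 ± 0.00848 of the summed FPKM of Npr1 and Npr2 in controls and at 0.0107 ± 0.00206 in nitroglycerin libraries (n = 4 per group), which differed by less than the spread between libraries (two-sided exact permutation p = 0.886, adjusted p = 0.971).

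Endothelial cells also express Npr1, and the summed level of their markers did not overlap between the groups as deposited. Of 13 listed endothelial markers, 12 had a row and none was at 0 in any library. Their summed FPKM was between 46.8 and 73.9 in controls and between 78.7 and 96.1 with nitroglycerin. The sums were not rescaled, and as deposited 24.2% of all tested genes were higher without overlap. Of the 11 tested, the junction gene Esam (3.90 ± 0.281 FPKM in controls, 8.23 ± 1.51 with nitroglycerin) and the endoglin gene Eng (11.1 ± 0.693 and 17.2 ± 1.37 FPKM) rose as deposited by limma over all genes (adjusted p = 0.0413 and 0.0492), against 1.35% of all tested genes called. The most abundant marker, Vwf, stood at 23.6 FPKM in both group means (log2 difference 0.08, limma adjusted p = 0.852). As deposited 7 of the 11 were higher at an unadjusted p under 0.05 (34.1% of all tested genes). After rescaling 0 passed and 3 were higher at an unadjusted p under 0.05 (5.5% of all tested genes). In controls the order of the libraries differed between the summed markers and Npr1, since control replicate 4 had the least marker signal (46.8) and the most Npr1 (12.6 FPKM). With the mean log2 level of 11 endothelial markers as a covariate, the log2 difference of Npr1 was 0.77 (SE 0.31) as deposited (limma adjusted p = 0.502). After rescaling it was 0.41 (SE 0.12, limma adjusted p = 0.317). As deposited the covariate ran from 2.10 to 2.58 in controls and from 2.69 to 3.10 with nitroglycerin. Because it did not overlap between the groups, the fit as deposited cannot tell the covariate from the group. In these bulk samples, a change in the number of cells of a type and a change in RNA per cell cannot be told apart. Adipocyte markers, of which 8 of 9 had a row, summed to 10.6 to 27.3 FPKM in controls, 120.5 in nitroglycerin replicate 1 and 15.98 to 22.7 in the other nitroglycerin libraries, with Ucp1 at 0 in control replicate 4. The extraction protocol in the labels speaks of an adipose type, although every sample is labelled aorta. That library had the lowest Npr1 of its group (16.4 FPKM), and without it the log2 difference of Npr1 was 0.69 as deposited and 0.33 after rescaling.

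The genes of soluble guanylate cyclase varied more between libraries than between groups. Gucy1a3, the main alpha subunit gene here, read 7.67, 8.78, 8.45 and 11.6 FPKM in the controls and 7.90, 10.4, 12.3 and 13.3 in the nitroglycerin libraries. The groups overlapped, with nitroglycerin replicate 1 among the low controls and control replicate 4 among the high treated libraries. The log2 difference was 0.24 (SE 0.18, 95% interval -0.18 to 0.65, limma adjusted p = 0.355) as deposited and -0.12 (95% interval -0.49 to 0.26) after rescaling, so its direction depended on the scaling. Gucy1b3, the beta subunit gene, read 5.89, 8.19, 7.27 and 7.61 FPKM in the controls and 10.1, 6.32, 9.49 and 13.4 in the nitroglycerin libraries. Its nitroglycerin libraries ran from below most controls, in replicate 2, to well above all of them, in replicate 4. The log2 difference was 0.36 (SE 0.20, 95% interval -0.10 to 0.82, limma adjusted p = 0.220) and 0.01 (95% interval -0.34 to 0.37) after rescaling. Rescaled controls were nearly equal, at 7.93, 8.23, 7.99 and 8.42, while rescaled nitroglycerin libraries read 8.72, 5.92, 7.99 and 10.99, an SD of 0.222 against 2.09. That difference in spread was not tested.

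Gucy1a2, the minor alpha subunit gene, read 1.91, 1.91, 1.70 and 1.27 FPKM in the controls and 2.31, 2.26, 1.42 and 2.11 in the nitroglycerin libraries, which overlapped. Its log2 difference was 0.16 (SE 0.15, 95% interval -0.17 to 0.49, limma adjusted p = 0.429) and -0.09 after rescaling. A second row with this symbol, MSTRG.19358, held a single assembled transcript and no annotated one. It read 1.78, 1.77 and 1.605 FPKM in control replicates 1 to 3 and was listed at 0 in control replicate 4 and in all 4 nitroglycerin libraries. It was under the filter and was not tested, and a listed 0 can be a failed estimate. In control replicates 1 to 3 it was close to the row used, and the Gucy1a2 differences given here leave it out. None of the 4686 transcripts of the deposited lncRNA table carried the symbol or the locus identifier of any of the 8 genes.

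FPKM is per length, so subunit levels were set beside each other within a library. The rows differed in makeup, with 7 transcripts for Gucy1a3 (1 annotated), 3 for Gucy1a2 (1 annotated) and 1 annotated transcript for Gucy1b3. The part of this in the ratios was not tested. The summed alpha subunit FPKM (Gucy1a3 and Gucy1a2) was 1.63, 1.304, 1.40 and 1.69 times that of Gucy1b3 in the controls and 1.01, 2.00, 1.45 and 1.153 times in the nitroglycerin libraries. Alpha FPKM thus exceeded beta FPKM in every library, and the nitroglycerin libraries spanned the whole control range on both sides. On the log2 scale the ratio was 0.58 ± 0.18 in controls and 0.44 ± 0.43 with nitroglycerin (n = 4 per group, two-sided exact permutation p = 0.571, adjusted p = 0.971). Gucy1a2 stood at 0.195 ± 0.0600 of Gucy1a3 FPKM in controls and 0.196 ± 0.0770 with nitroglycerin (n = 4 per group, two-sided exact permutation p = 0.971, adjusted p = 0.971). The log2 difference of that ratio was -0.01, within the spread between libraries. These ratios leave out the second Gucy1a2 row, which was above 0 only in control replicates 1 to 3. Ratios with that row added were not tested.

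**Figure D2:**
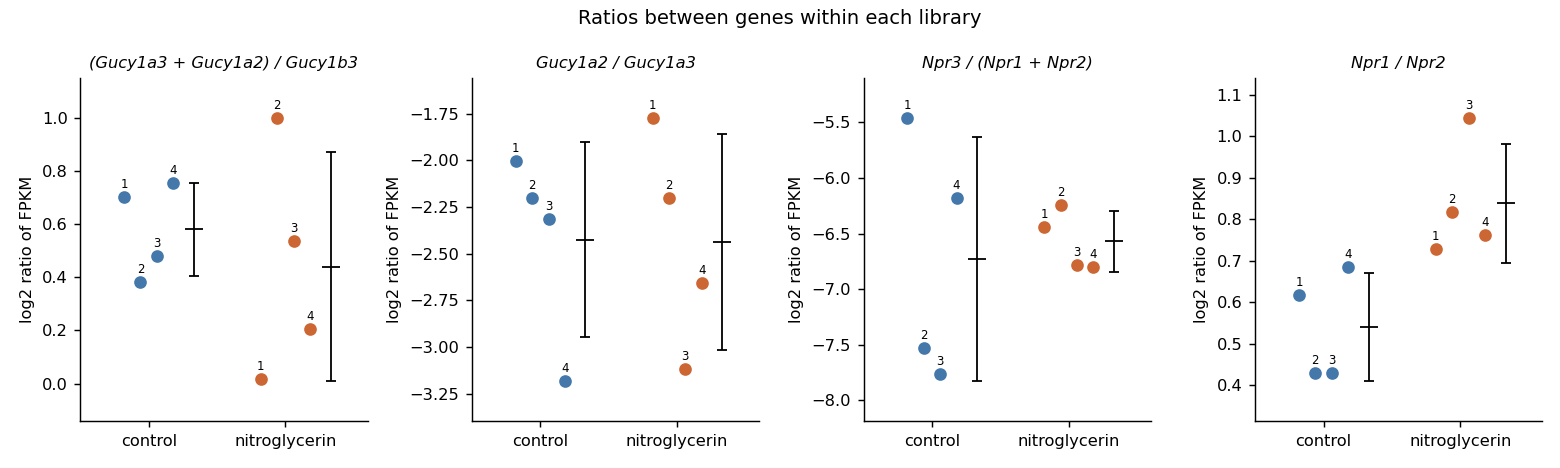
Log2 ratio of FPKM between genes (y axis) in each library (points, numbered by replicate), with the mean and SD of each group of 4. The Npr1 to Npr2 ratio separates the groups, while the alpha to beta subunit, Gucy1a2 to Gucy1a3 and Npr3 to Npr1 + Npr2 ratios overlap.

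The kinase substrate genes lay on the other side of the typical gene. Mrvi1 read 7.90, 12.4, 11.4 and 11.8 FPKM in the controls and 6.07, 12.1, 8.84 and 8.79 in the nitroglycerin libraries. Control replicate 1 fell among the treated libraries, nitroglycerin replicate 2 fell among the controls, and the groups overlapped. The log2 difference was -0.27 (SE 0.21, 95% interval -0.74 to 0.20, limma adjusted p = 0.348), and 95.3% of tested genes had a larger one. After rescaling the controls read 10.6, 12.5, 12.6 and 13.03 and the nitroglycerin libraries 5.24, 11.3, 7.44 and 7.22, a log2 difference of -0.62 (SE 0.19, 95% interval -1.06 to -0.18, limma adjusted p = 0.266). Only nitroglycerin replicate 2 then reached the control range. Without that library the rescaled difference was -0.80, the lowest with any 1 library left out, and the highest was -0.47, without nitroglycerin replicate 1.

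Vasp read 9.12, 12.2, 10.7 and 9.35 FPKM in the controls and 9.73, 11.6, 10.8 and 8.93 in the nitroglycerin libraries. The groups overlapped almost fully, with means of 10.4 ± 1.43 and 10.3 ± 1.182 FPKM (SD, n = 4 per group). The log2 difference was -0.01 (SE 0.13, 95% interval -0.31 to 0.30, limma adjusted p = 0.965), which lay 0.30 below the median gene. Rescaled values were 12.3, 12.3, 11.8 and 10.3 in controls and 8.40, 10.9, 9.10 and 7.34 with nitroglycerin. The rescaled difference was -0.36 (SE 0.12, 95% interval -0.64 to -0.08, limma adjusted p = 0.298), with nitroglycerin replicate 2 again the only treated library within the control range. Vasp is abundant in platelets, whose 5 listed markers summed as deposited to 1.97 to 2.49 FPKM in controls and 2.57 to 7.19 with nitroglycerin. The sum was mostly Pf4 (1.54 to 6.36 FPKM). The other platelet markers were low, at most 0.460 FPKM (Itga2b in nitroglycerin replicate 2). Ppbp was at 0 in every control and in nitroglycerin replicates 2 and 3. The sums were not rescaled. The part of these markers in the Vasp values was not tested.

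**Figure D3:**
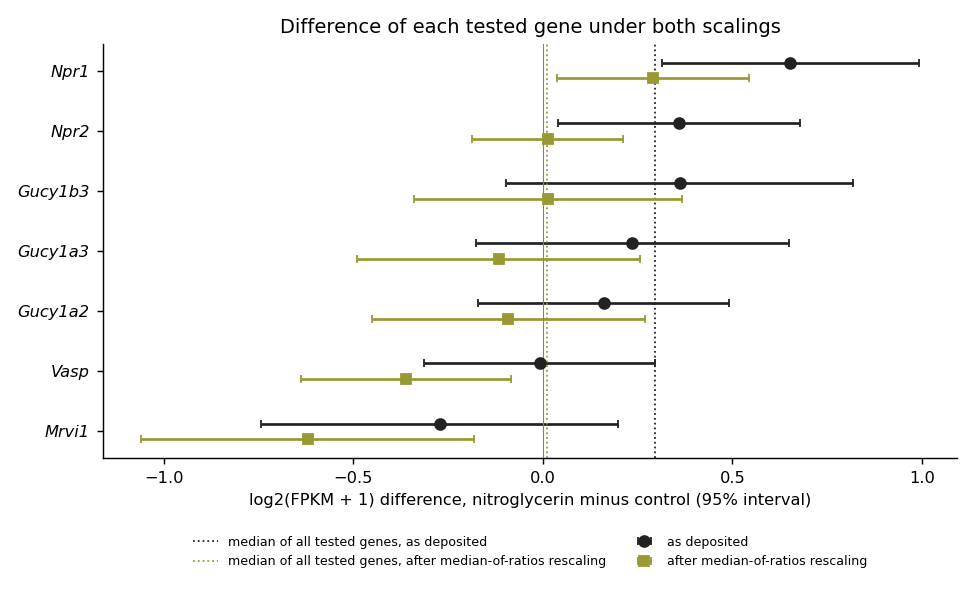
Log2(FPKM + 1) difference, nitroglycerin minus control (x axis), of the 7 tested genes with 95% intervals, as deposited (circles) and after rescaling (squares). Dotted lines are the medians of all 12977 tested genes (0.30 and 0.01). Npr1 lies above both medians, and Vasp and Mrvi1 lie below both.

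Smooth muscle markers were set beside Mrvi1 in each library. Of 10 listed markers, 8 had a row, none was at 0 in any library, and their summed FPKM was 2072, 2341, 2544 and 2758 in control replicates 1 to 4 and 1315, 2717, 2090 and 1554 in nitroglycerin replicates 1 to 4. Within the nitroglycerin group, replicate 2 was highest and replicate 1 lowest both in the marker sum and in Mrvi1, and control replicate 1 was the lowest control in both, while the other 3 controls did not share an order. The sum was mostly the actin gene Acta2 (1061 to 2401 FPKM), and single markers ran differently: within the nitroglycerin group Smtn was lowest in replicate 2 (19.7 FPKM), Lmod1 highest in replicate 3 (23.5 FPKM) and Myh11 highest in replicate 4 (159 FPKM). Of the 8 markers tested, 0 passed limma over all genes under either scaling. At an unadjusted p under 0.05, 1 was higher (34.1% of all tested genes) and 1 lower (1.02%) as deposited. After rescaling 1 was higher (5.5% of all tested genes) and 3 lower (6.44%). With the mean log2 level of these 8 markers as a covariate, the Mrvi1 difference was -0.21 (SE 0.14) as deposited and -0.20 (SE 0.18) after rescaling, with limma adjusted p-values of 0.276 and 0.845. With the same covariate the rescaled Vasp difference was -0.15 (SE 0.14, limma adjusted p = 0.850). This covariate was chosen after the values had been seen.

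**Figure D4:**
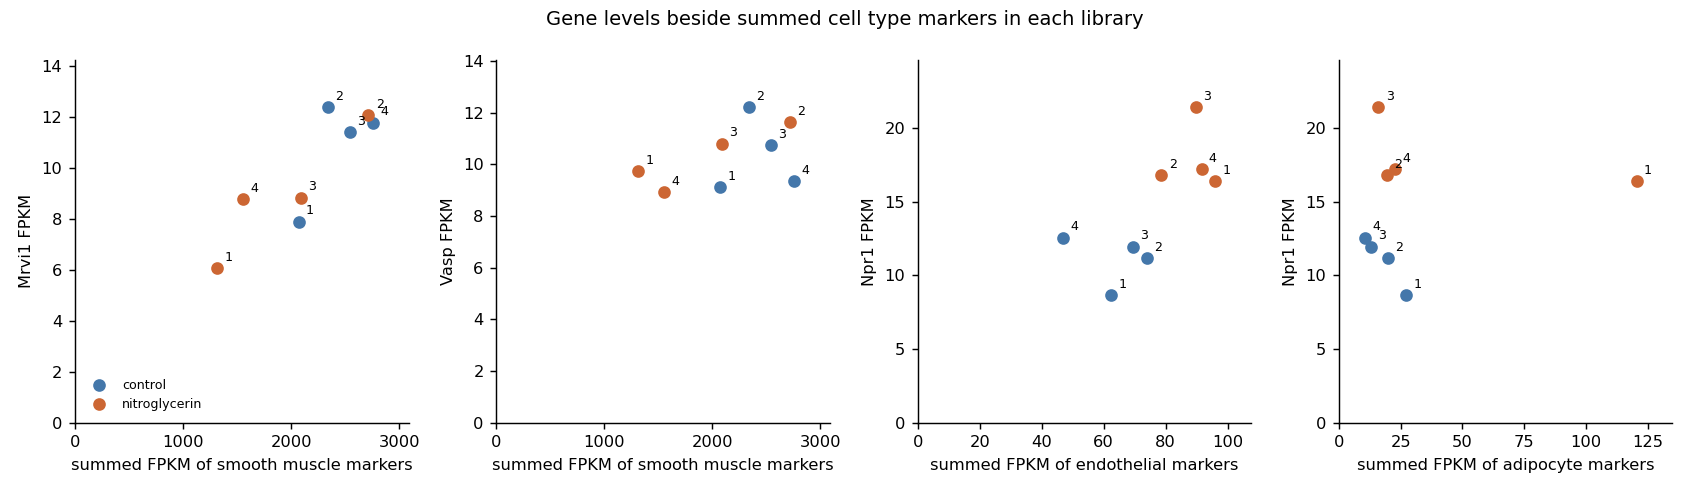
FPKM of Mrvi1, Vasp or Npr1 (y axis) against the summed FPKM of smooth muscle, endothelial or adipocyte markers (x axis), 1 point per library, numbered by replicate. Mrvi1 is lowest in nitroglycerin replicate 1, where the smooth muscle sum is also lowest (1315). As deposited, endothelial sums (46.8 to 73.9 in controls, 78.7 to 96.1 with nitroglycerin) and Npr1 both separate the groups. As deposited 24.2% of all tested genes were higher without overlap, and the sums were not rescaled.

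Markers of the remaining cell types were as follows. Fibroblast markers (7 of 8 with a row, Cd34 at 0 in nitroglycerin replicate 1) summed to 230.4 to 512.6 FPKM in controls and 316 to 407 with nitroglycerin, and macrophage markers (8 of 9, none at 0) to 43.8 to 107.7 and 64.4 to 108.7. Skeletal muscle markers (6 of 7 with a row) summed to 22.0 to 32.2 FPKM in controls and 14.8 to 21.8 with nitroglycerin. Among them Myh2 was at 0 in control replicates 2 and 3 and in all nitroglycerin libraries. By limma as deposited (1.35% of all tested genes called), 1 of 8 tested macrophage markers, Cd163, rose and 1 of 4 tested skeletal muscle markers, Ckm, fell. After rescaling (0.131% called) Ckm alone passed. The log2 difference was above 0 for 7 of the 8 macrophage markers as deposited and 5 after rescaling. For the 4 skeletal muscle markers it was above 0 for 1 and 0. The part of all these markers in the values of the 8 genes was not tested.

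Npr1 had the highest mean FPKM of the 8 genes in both groups, and the order below it was loose. The rows held from 1 transcript (Gucy1b3 and Npr3) to 18 (Mrvi1), and the part of this in the order was not tested. In controls Npr1 (11.1), Mrvi1 (10.9), Vasp (10.4) and Gucy1a3 (9.12) had the highest mean FPKM, and each neighbouring pair in this order kept it in 3 of 4 libraries. Npr2 (7.66) and Gucy1b3 (7.24) followed, also in that order in 3 of 4 libraries, and Gucy1a2 (1.70) and Npr3 (0.202) were lower in all 4. With nitroglycerin Npr1 (17.96 FPKM) was above the next gene, Gucy1a3 (10.98 FPKM), in 4 of 4 libraries. Gucy1a3, Vasp (10.3), Npr2 (9.99), Gucy1b3 (9.82) and Mrvi1 (8.95) followed, each above the next in 2 or 3 of 4 libraries. By mean log2 level Npr1 stood at percentile 92.5 of the tested genes, Gucy1a3 at 88.6, Gucy1b3 at 85.6 and Gucy1a2 at 29.0. Control replicate 1 was the lowest control in 6 of the 8 genes as deposited (all but Gucy1a2 and Npr3).

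How the genes moved together was measured as the mean absolute difference, over the 8 libraries, between log2(FPKM + 1) values centred on each gene's own mean. The closest pair of the 7 tested was Npr1 and Npr2 (0.147 log2 units), and the most distant was Gucy1b3 and Mrvi1 (0.476). Gucy1a3 and Gucy1b3, whose products form 1 enzyme, lay at 0.238, close to the median distance of Gucy1a3 to 10079 other annotated genes (0.236). Among those, the closest to Npr1 were Kat2a (0.0596), Mcrs1 (0.0637) and Coq2 (0.0639), the closest to Gucy1a3 were Scnm1 (0.0592), Lpgat1 (0.0639) and Recql (0.0705), and the closest to Gucy1b3 were Rpp30 (0.0524), Sh3yl1 (0.0637) and Apaf1 (0.0639). These distances describe 8 libraries that share the difference between groups.

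The rest of the cGMP pathway was represented by 42 other listed genes, of which 38 had a row and 24 were tested. As deposited, 1 of the 24 rose and 0 fell by limma over all genes, against 1.35% of all tested genes called. At an unadjusted p under 0.05, 6 were higher (34.1% of all tested genes) and 2 lower (1.02%), and their median log2 difference was 0.23, beside 0.30 for all tested genes. After rescaling 0 rose and 1 fell, against 0.131% of all tested genes called. Of the 24, 1 was higher (5.5% of all tested genes) and 4 lower (6.44%) at an unadjusted p under 0.05, and the median was -0.11, beside 0.01. The gene that rose as deposited was Corin, which encodes the protease that activates the precursor of atrial natriuretic peptide. It read 3.12, 4.06, 4.45 and 2.54 FPKM in the controls and 6.80, 9.57, 8.80 and 6.99 in the nitroglycerin libraries, all above every control. The groups also did not overlap after rescaling. Among all tested genes, 24.2% as deposited and 3.78% rescaled were higher without overlap. The log2 difference of Corin was 1.00 (SE 0.17, limma adjusted p = 0.0492) as deposited and 0.68 (SE 0.17, limma adjusted p = 0.189) after rescaling. The call as deposited was lost without any 1 library other than nitroglycerin replicate 2 (limma adjusted p up to 0.127).

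The gene that fell after rescaling was Hspb6, a small heat shock protein that cyclic nucleotide kinases phosphorylate. It read 13.1, 18.01, 16.7 and 13.8 FPKM in the controls and 11.7, 11.6, 11.8 and 12.4 in the nitroglycerin libraries, all below every control. The groups also did not overlap after rescaling. Among all tested genes, 0.478% as deposited and 4.45% rescaled were lower without overlap. The log2 difference of Hspb6 was -0.34 (SE 0.13, limma adjusted p = 0.108) as deposited and -0.70 (SE 0.08, limma adjusted p = 0.0351) after rescaling. The rescaled call was lost without any 1 library other than nitroglycerin replicate 2 (limma adjusted p up to 0.117). Among the other 12 substrate genes none passed limma under either scaling. The formin gene Fhod1 stood at 3.35 ± 0.327 and 4.73 ± 0.952 FPKM and the calcium pump regulator Pln at 6.34 ± 2.53 and 11.2 ± 3.90 FPKM. Their log2 differences were 0.39 and 0.75 as deposited (limma adjusted p = 0.0965 and 0.108). After rescaling they were 0.08 and 0.40 (limma adjusted p = 0.814 and 0.659).

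Of 9 listed cGMP phosphodiesterases, 5 were tested and 0 passed limma under either scaling. At an unadjusted p under 0.05, 3 were higher as deposited (34.1% of all tested genes) and 0 after rescaling (5.5%). Pde5a, the cGMP-specific enzyme, stood at 5.57 ± 0.825 and 8.15 ± 0.527 FPKM, and Pde3b at 2.09 ± 0.454 and 3.38 ± 0.949 FPKM. Their log2 differences were 0.48 and 0.49 as deposited (limma adjusted p = 0.0615 and 0.0909). After rescaling they were 0.15 and 0.21 (limma adjusted p = 0.685 and 0.611). The heme reductase of soluble guanylate cyclase, Cyb5r3, stood at 9.07 ± 2.55 and 6.07 ± 1.03 FPKM (limma adjusted p = 0.113 as deposited and 0.206 rescaled), and the chaperone gene Hsp90ab1 at 174 ± 39.5 and 201 ± 58.8 FPKM (limma adjusted p = 0.585). The kinase gene Prkg1 had no row under that symbol, and Prkg2 was near 0 throughout. The peptide genes Nppa and Nppc were near 0, with Nppc listed at 0 in control replicates 1 and 2 and in every nitroglycerin library.

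Other guanylate cyclase genes were low in the aorta. Gucy1b2, a second beta subunit gene, read 0.503, 0.348, 0.182 and 0.259 FPKM in the controls and 0.912, 1.69, 0.925 and 0.813 in the nitroglycerin libraries, which did not overlap. Gucy2g, a membrane guanylate cyclase gene, read 0.568, 0.808, 0.825 and 0.758 FPKM in the controls and 1.35, 1.03, 0.952 and 1.79 in the nitroglycerin libraries, also without overlap. These separations are as deposited, where 24.2% of all tested genes were higher without overlap, and were not examined after rescaling. Both genes were under the filter and were singled out after their values had been seen. With no filter, their log2 differences were 0.64 (SE 0.16, limma adjusted p = 0.116) and 0.38 (SE 0.15, limma adjusted p = 0.228) over 27742 rows.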

How the data were processed

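Libraries of 8 rat thoracic aorta samples were made from total RNA after ribosomal depletion (Ribo-Zero Gold), per the labels' protocols. Per the submitters' processing notes, the tools were Bowtie 0.12.2, HISAT2 2.0 and StringTie 1.3.0 and the builds were mm8 and Rnor_6.0, with no role given. The authors deposited FPKM per gene and library, and for predicted lncRNA transcripts FPKM, coverage signal per base, 2 coding potential scores, length and exon number, per the file headers. These are not counts, so no counting intervals are given. The ratio of coverage to FPKM, constant within a library, gave the aligned sequence. The 12977 rows reaching 1 FPKM in 4 or more libraries were compared as log2(FPKM + 1) with limma 3.58.1 in R 4.3.3 (mean-variance trend, Benjamini-Hochberg). Ratios were tested by exact permutation, two-sided, over the 70 splits in Python 3.11.15.

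The members and lists were chosen with earlier results of these data known. All 8 members are named, with each pathway gene that passed or else the 2 of lowest p per list, and the 3 genes nearest in pattern to Gucy1a3, Gucy1b3 and Npr1. The marker scores used as covariates are mean log2 levels of listed markers averaging at least 1 FPKM. On simulated data of 12977 genes for this comparison, as deposited, limma recovered 22%, 60% and 92% of genes raised by log2 differences of 0.585, 1 and 2. It recovered 54% of those at a log2 difference of -1, and 8 of 122 calls were false. The simulation drew each gene independently around its mean, with 50 genes changed at each difference, all with a mean log2 level above 1. It held no shift shared by all genes, while 86.6% of tested genes lay above 0 as deposited, so these rates may not carry over. Alternatives covered the pseudocount, filter, scaling, replicate block, covariates, robust eBayes, a single row per symbol and leaving out each library. The planned test of lncRNA transcripts at these genes found no transcript to test. Matplotlib 3.10.9 drew the plots.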

Additional observations from a re-analysis of the deposited data

Results flagged for a closer look

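A single library stood far from the rest of its group in 4 of 58 sets of values (6.90%), and chance alone flags about 1 in 20. Nitroglycerin replicate 3 had 21.4 FPKM of Npr1 against 16.4 to 17.2 in the rest of its group. Nitroglycerin replicate 2 had 1.69 FPKM of Gucy1b2 against 0.813 to 0.925. Nitroglycerin replicate 1 had a summed adipocyte marker FPKM of 120.5 against 15.98 to 22.7. Control replicate 2 had a summed fibroblast marker FPKM of 512.6 against 230.4 to 268.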

How the results depend on the processing

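No member was called by limma under any alternative as deposited or rescaled, except Npr1 with the stricter filter or with 1 row per symbol, where 1 member was called. Members at an unadjusted p under 0.05 numbered 1 to 3 over all alternatives. The 175 genes called as deposited became 7 when 0.1 replaced 1 as pseudocount, 26 without a filter, 384 under the stricter one, 17 after rescaling, 15 after quantile normalization, 9, 0 and 8 with the adipocyte, endothelial and smooth muscle scores as covariates, 728 with 1 row per symbol, and 5 to 284 with a library left out. The 167 higher and 8 lower as deposited became 4 and 13 after rescaling. Against 17 after rescaling there were 9, 2 and 0 with those covariates and 1 to 31 with a library left out. Against 1 pathway gene as deposited there were 2 with the stricter filter or 1 row per symbol, 0 with a pseudocount of 0.1, no filter or any covariate, and 0 to 1 with a library left out, and against 1 after rescaling 0 with any covariate and 0 to 1 with a library left out. Where limma called 0 genes, 4037 (block), 1249 (endothelial score), 1611 (block, rescaled) and 939 (smooth muscle score, rescaled) had an unadjusted p under 0.05, and where it called 0 pathway genes, 3 to 12 had.

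The replicate number as a block gave 0 genes called by limma as deposited and 0 after rescaling, and 0 pathway genes in both cases. Same-numbered libraries did not deviate together in every pair (correlations of 0.133, -0.011, -0.012 and 0.121), and not every library correlated best with its own number. The values of replicates 1 and 4 were the highest between any control and any nitroglycerin library. The next was 0.0875 (control replicate 4 with nitroglycerin replicate 3). The numbers were not taken to pair the samples, and these correlations cannot settle whether they do. The block changed no member's call.

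Several directions turned. Gucy1a3 (0.24 as deposited) was -0.12 after rescaling and -0.0451 after quantile normalization, and rescaled it was 0.15 and 0.0844 with the endothelial and smooth muscle covariates and -0.19 to 0.0143 with a library left out. Gucy1a2 (0.16 as deposited) was -0.0916, -0.12 and -0.0901 after rescaling, after quantile normalization and with the endothelial covariate, and rescaled it was -0.19 to 0.0136 with a library left out. Gucy1b3, rescaled, was -0.30 with the smooth muscle covariate and -0.11 to 0.15 with a library left out. Mrvi1 (-0.27 as deposited) was 0.13 with the endothelial covariate. Vasp was 0.0185 and 0.0124 with the adipocyte and smooth muscle covariates and -0.0649 to 0.0673 with a library left out, and Npr2, rescaled, -0.0391 to 0.0681. The difference in the log2 ratio of Npr3 to Npr1 + Npr2 was -0.45 with 1 added to each sum and -0.18 to 0.59 with a library left out, and that of Gucy1a2 to Gucy1a3 -0.27 to 0.21. The cause of these turns was not tested. The Npr1 difference and the Npr1 to Npr2 ratio stayed above 0 in every alternative run. Counts of reads were not analysed here, so the depth behind low genes such as Npr3 is unknown.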
